A study of Mus musculus with 24 samples.

Results

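Muscle fibers form when mononucleated myoblasts recognize each other, adhere, and merge their membranes, and the finished fiber then has to reseal the tears that contraction makes in its surface. The values of 10 genes of these steps were followed in engineered mouse muscle that was or was not exercised with light. They are the fusogens Mymk and Mymx, the adhesion receptors Cdh15, Cdh2, Cdon, and Boc, the ferlins Myof and Dysf, and the repair and caveolar genes Cav3 and Trim72. The genes were taken by symbol, all 10 were found among the 56941 genes listed, and all 10 were among the 13315 that passed the filter on low counts.

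The tissues were sheets of C2C12, an established mouse myoblast line that carries the blue-light-sensitive channel ChR2 tagged with tdTomato (genotype ChR2::tdTomato). All tissues, controls included, carried the channel and were differentiated in medium with heat-inactivated horse serum and IGF-1. The unstimulated controls comprised 6 biological replicates, and 6 each were stimulated at 1, 4, or 10 Hz for 60 min daily, which gave 24 libraries. The number of light pulses rose with frequency at a fixed duration, so frequency and pulse number cannot be told apart, nor can contraction and light. The study describes spontaneous twitching in tissues of every condition. Each library is a mixture of fused and unfused cells of 1 line in 2D culture, without nerve, vessels, or other tissue.

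Fusion of vertebrate muscle needs a pair of membrane proteins. Myomaker (Mymk) is a multipass protein that drives the mixing of the outer membrane leaflets, and the small protein myomixer (Mymx) acts with it to open the fusion pore. Before that, cadherins hold the cells together, and the immunoglobulin-family receptors Cdon and Boc, which also serve as Hedgehog co-receptors, bind cadherins and signal toward the myogenic program. After fusion, the ferlins Myof and Dysf carry calcium-binding domains that bring vesicles to the membrane, Trim72 (MG53) gathers them at a wound, and Cav3 coats the caveolae of the muscle surface.

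The libraries held 8052369 to 18159144 estimated counts each. The labels call the cells myoblasts, whereas all 12 myotube markers passed the filter and summed to 16671 to 20731 TPM (transcript abundance corrected for length and scaled to a common total) in the controls. No marker of endothelial or fat cells passed the filter (0 of 5 in each list), Of 5 macrophage markers, 2 passed (Cd68 at a mean of 52.2 CPM and Cd14 at 6.91 CPM in the controls), 0 were changed at any frequency, and Ptprc and Adgre1 were at 0 in all controls. That list summed to 82.0 to 113 TPM in the controls, 62.1 to 93.7 at 1 Hz, 62.0 to 102 at 4 Hz, and 69.3 to 87.4 at 10 Hz. Of 5 fibroblast markers, 4 passed and Tcf21 was at 0 in every group. At 1 Hz, replicates 4 and 6 stood apart from the other 4 libraries for several of the genes below, so values of the 10 genes at 1 Hz are also given without them. They were also the deepest libraries at 1 Hz, with 18159144 and 13227360 estimated counts, where the next had 10695556. Their scaling (TMM) factors, 0.90 and 0.93, were the lowest of that group. The part of these differences between libraries in the values of the genes was not tested. Replicates 4 and 6 were chosen for the values of Cav3, Myof, Cdh15, and Cdon, so values without them are descriptions and no p is given. For Cdh15 they were the lowest, at 55.7 and 52.1 CPM, but replicate 5 lay close to them at 57.1 CPM. Levels are CPM (a library's counts scaled to a common total, with TMM factors), which compare libraries, or TPM, which also compare genes. Unless another test is named, changes are log2(fold change) ± SE from the quasi-likelihood test of edgeR, fitted to the 24 libraries together, and p was adjusted by Benjamini-Hochberg over the genes tested. Genes past both thresholds, 0.05 for the adjusted p and 0.5 for the size of the log2(fold change), were counted as changed.

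The adhesion receptors Cdh15, Cdh2, and Cdon were downregulated at 1 and 4 Hz, and the other 7 genes did not pass the rule at either frequency. At 1 Hz, 3 of the 10 genes were lower and 0 higher, where 14.9% of all genes tested were changed and 7.74% were lower. At 4 Hz, the same 3 genes were lower and 0 higher, against 25.1% changed and 12.3% lower among all genes. At 10 Hz, 0 of the 10 were changed, against 0.0376% of all genes. Without adjustment, 2 of the 10 (Cdh2 and Mymx) had a p under 0.05 at 10 Hz, against 8.07% of all genes, and DESeq2 also called 0 of them. Over the 10 genes, the median log2(fold change) at 1, 4, and 10 Hz was -0.15, 0.04, and -0.12, beside 0.04, 0.06, and 0.01 over all genes.

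**Figure D1:**
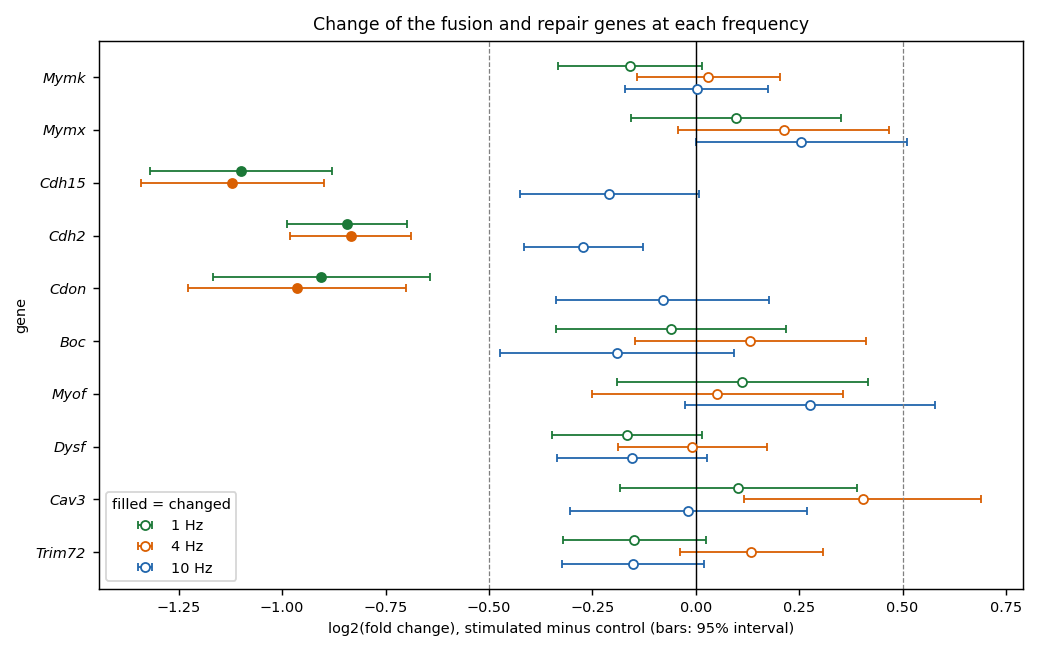
Log2(fold change) of each gene (stimulated minus control, horizontal axis) at 1, 4, and 10 Hz from edgeR, with 95% intervals, filled where the gene was counted as changed and with dashed lines at the fold threshold. Filled points are seen for Cdh15, Cdh2, and Cdon at 1 and 4 Hz, and the intervals of most other values reach 0.

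In the controls the genes spanned a wide range of TPM. Mymk, the multipass fusogen, had the highest mean at 562 ± 49.1 TPM (SD, n = 6) and ranked 262 of all genes listed. Mymx followed at 154 ± 13.3 TPM. Their ranges did not overlap with each other or with those of the genes below them. Cav3, Trim72, Cdh15, and Cdh2 came next, at 82.1 ± 8.63, 79.5 ± 4.05, 69.9 ± 7.36, and 56.1 ± 3.06 TPM. Neighbors in that order overlapped in range, so the order of neighbors is not set by these libraries. The ranges of Cav3 and Trim72 lay wholly above that of Cdh2. Cdon had 32.6 ± 3.55 TPM and was separated from Cdh2 above it and Dysf below it. Dysf had 22.4 ± 3.27 and Myof 16.2 ± 1.37 TPM, and these ranges overlapped. Boc was far below all others, at 1.83 ± 0.34 TPM and a median of 72.5 estimated counts per control library.

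**Figure D2:**
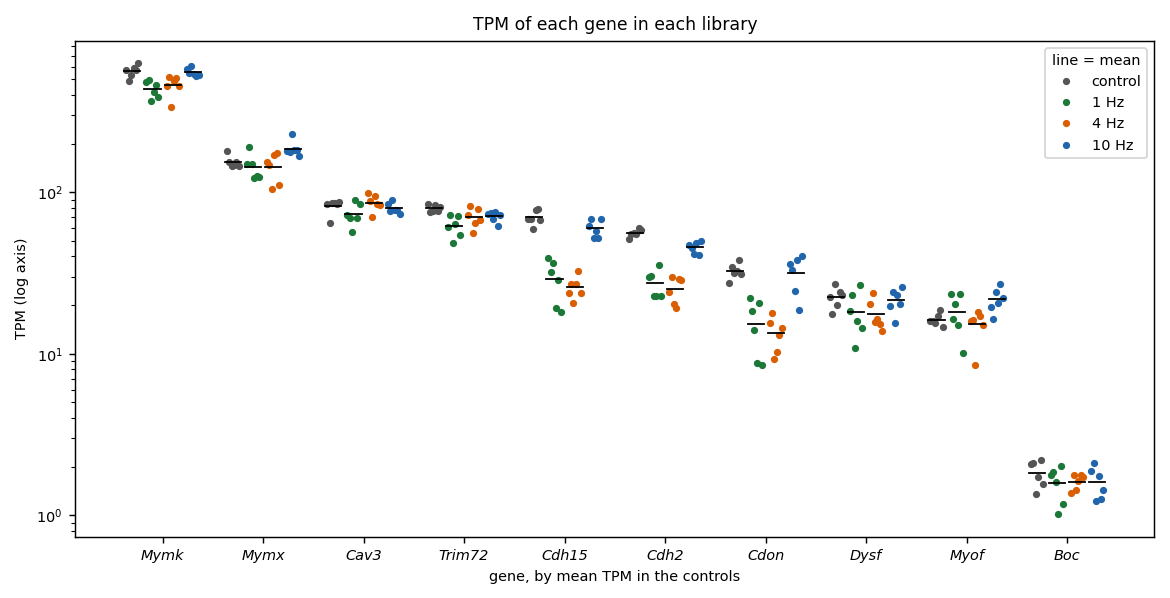
TPM (log axis) of each gene in each library, by condition, with a line at the mean of the 6 libraries and genes ordered by their mean in the controls. Mymk lies near 562 TPM and Boc near 1.83 TPM in the controls, and Cdh15, Cdh2, and Cdon drop at 1 and 4 Hz.

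Cdh15 encodes M-cadherin, the cadherin that joins muscle precursor cells to each other and to the fiber. The gene (ENSMUSG00000031962) lies at chr8:123574705-123596048 on the plus strand of GRCm39, with 14 exons in its canonical transcript, and is the 1 gene of the 10 without an annotated neighbor overlapping it in antisense. It had 115, 144, and 162 CPM (lowest, median, and highest of 6 libraries) in the controls. At 1 Hz these values were 52.1, 63.8, and 83.0 CPM. At 4 Hz they were 58.5, 64.2, and 76.2 CPM. All 6 libraries at either frequency were below every control, as were 8.58% of all genes at 1 Hz and 14.7% at 4 Hz. The change was -1.10 ± 0.11 at 1 Hz and -1.12 ± 0.11 at 4 Hz on the log2 scale, or 0.467 and 0.460 times the control, with adjusted p of 3.6e-08 and 1.3e-08. At 10 Hz the libraries ran from 114 to 137 CPM with a median of 121, 5 of the 6 lay within the range of the controls, and the change of -0.21 ± 0.11 did not pass (adjusted p = 0.63). These are bulk samples, in which fewer cells of a type and less RNA per cell cannot be told apart.

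Cdh2 encodes N-cadherin, a classical cadherin shared by muscle, nerve, and heart. The gene (ENSMUSG00000024304, 16 exons) lies at chr18:16700793-16942381 on the minus strand of GRCm39. In the controls it had 136, 147, and 153 CPM (lowest, median, and highest). The same values were 68.5, 82.6, and 88.2 CPM at 1 Hz. They were 63.2, 84.7, and 88.1 CPM at 4 Hz. Again no stimulated library at 1 or 4 Hz reached the lowest control. Cdh2 thus fell by 0.84 ± 0.07 at 1 Hz and by 0.83 ± 0.07 at 4 Hz on the log2 scale, with adjusted p of 3.5e-09 and 1.9e-09.

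At 10 Hz, Cdh2 was the 1 gene of the 10 whose groups did not overlap, against 1.64% of all genes. Its libraries ran from 116 to 124 CPM with a median of 121. All 6 were below the controls and above every library at 1 and 4 Hz. Its log2(fold change) was -0.27 ± 0.07 with an unadjusted p of 0.00064 and an adjusted p of 0.16, so it did not pass. The adjusted p was 0.020 when only these 2 groups entered the fit and 0.021 with DESeq2's Wald test. It was 0.36 without the filter on low counts and 0.87 with limma on log2(TPM + 1). In each of these the change stayed under the fold threshold.

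Cdon binds cadherins at the cell surface through its immunoglobulin and fibronectin repeats. The gene (ENSMUSG00000038119, 20 exons) lies at chr9:35332424-35418948 on the plus strand of GRCm39. It had 129, 137, and 162 CPM (lowest, median, and highest) in the controls. These values were 54.2, 82.1, and 91.6 CPM at 1 Hz. They were 62.7, 72.6, and 84.0 CPM at 4 Hz. The controls did not overlap with either group. Cdon fell by 0.91 ± 0.13 at 1 Hz and by 0.96 ± 0.13 at 4 Hz on the log2 scale, with adjusted p of 7.1e-06 and 1.5e-06. At 10 Hz the libraries spread from 98.4 to 165 CPM around a median of 142, on both sides of the control range, and the change of -0.08 ± 0.13 did not pass (adjusted p = 0.95).

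Promoter sequence is shown for Cdh15 and Cdon, because these genes moved together and are among the 6 of the 10 genes with a sequence in the RefSeq promoter table (build GRCm38.p6). Mymk, Mymx, Cdh2, and Boc had none. The 250 bases before the start are printed 5′ to 3′ on the strand of the gene, at chr8:122848124-122848373 (plus strand) for Cdh15 and chr9:35451826-35452075 (plus strand) for Cdon. Capitals mark matches to the E-box pattern CANNTG, the general form of the sequences that MyoD-family factors bind. The pattern reads the same on both strands, although a single match such as CATGTG does not. Which factors prefer the matches shown was not tested.
Cdh15: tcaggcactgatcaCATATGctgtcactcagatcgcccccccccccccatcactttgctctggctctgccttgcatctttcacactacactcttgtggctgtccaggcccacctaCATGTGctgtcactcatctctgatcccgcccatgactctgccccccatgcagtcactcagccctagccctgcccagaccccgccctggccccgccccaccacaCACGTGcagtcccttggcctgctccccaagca
Cdon: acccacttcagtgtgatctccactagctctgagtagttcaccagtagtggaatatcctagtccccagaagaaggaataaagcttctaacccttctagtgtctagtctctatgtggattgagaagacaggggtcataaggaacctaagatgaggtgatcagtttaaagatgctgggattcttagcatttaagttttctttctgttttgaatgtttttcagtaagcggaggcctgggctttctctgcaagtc
Cdh15 held 3 matches, which start 236, 135, and 32 bases before the start listed in that table, and Cdon held 0. The listed starts and the gene positions given above are on different builds. Whether a listed start is the first start of its gene was not checked, so the stretches may lie at unlike places. At least 1 match was found in 66.2% of the 32851 promoters of the table and at least 3 in 12.2%. Of the genes that were not changed, Trim72 held 3 matches, Cav3 2, and Myof and Dysf 0. The form CAGCTG, which is contained in CANNTG, was found in Cav3 alone of these 6 genes, and in 13% of all promoters. A match describes the letters only and is not a binding site.

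**Figure D3:**
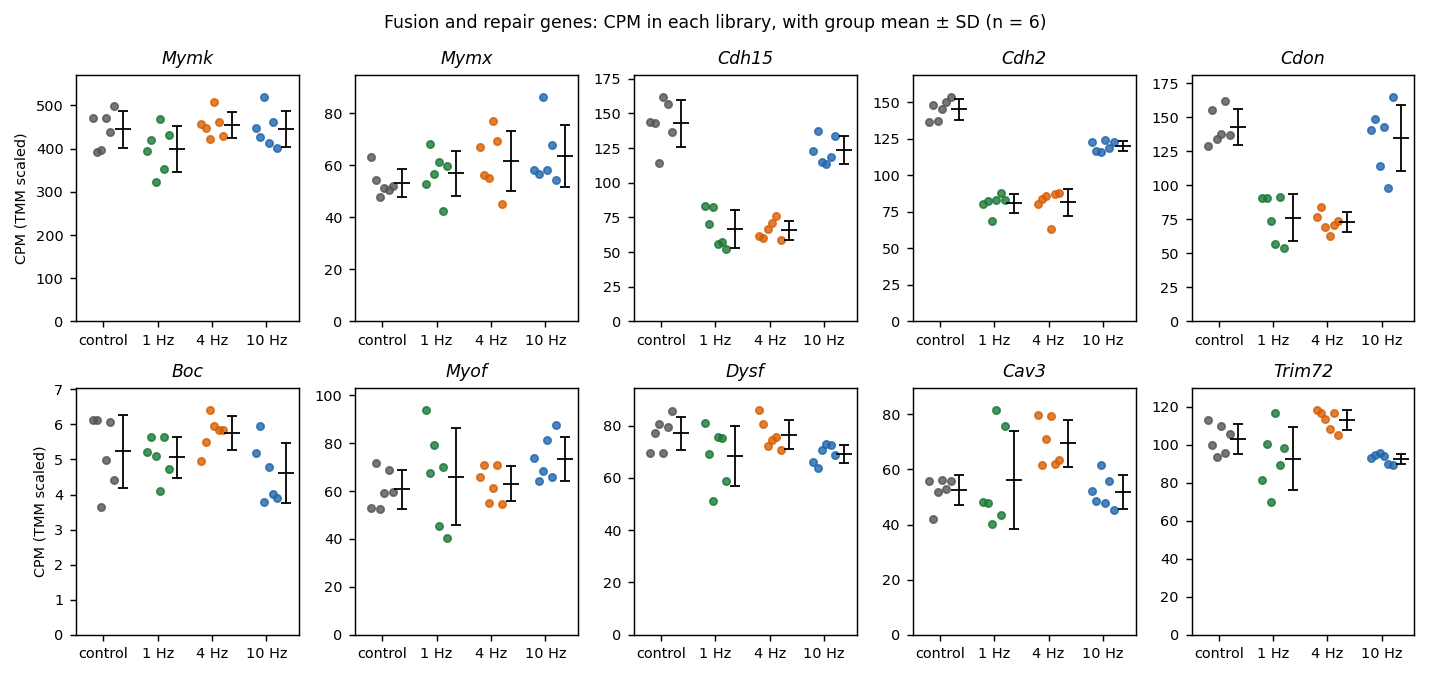
CPM (vertical axis, from 0) of each of the 10 genes in each library of the control, 1, 4, and 10 Hz groups, with the group mean ± SD beside the points (n = 6). For Cdh15, Cdh2, and Cdon the points at 1 and 4 Hz lie below all controls, and Cdh2 at 10 Hz lies between them at 116 to 124 CPM.

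These 3 genes were the members counted as higher at 10 Hz than at the lower frequencies. Against 1 Hz, 3 of the 10 were higher and 0 lower, where 10.8% of all genes were changed and 5.85% were higher. Against 4 Hz, 3 were higher and 0 lower, where 21.2% were changed and 10.6% were higher. Cdh15 was higher at 10 Hz by 0.89 ± 0.11 than at 1 Hz and by 0.91 ± 0.11 than at 4 Hz on the log2 scale. Cdh2 was higher by 0.57 ± 0.07 and 0.56 ± 0.07. Cdon was higher by 0.83 ± 0.13 and 0.88 ± 0.13. The 6 libraries at 10 Hz were above all libraries at 1 and 4 Hz for each of them, as were 5.03% and 10.8% of all genes, and the largest of these 6 adjusted p was 4.4e-05. Comparisons with a common group share its libraries, so these values are not independent of those against the control.

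Between 4 and 1 Hz, 0 of the 10 genes were changed, and 0% of all genes. DESeq2 called 0 of the 10 and 1 gene in all, and 3 of the 10 (Mymk, Cav3, and Trim72) had an unadjusted p under 0.05, against 11% of all genes. The 95% interval of the difference (4 Hz minus 1 Hz, log2) was -0.24 to 0.20 for Cdh15, -0.14 to 0.16 for Cdh2, and -0.32 to 0.20 for Cdon. Without replicates 4 and 6 of 1 Hz, the highest there for Cav3, the difference for Cav3 was 0.62, which the choice of libraries sets.

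The calls of Cdh15, Cdh2, and Cdon against the control did not rest on the unit. On log2(TPM + 1) with limma, Cdh15 was at -1.29 and -1.41, Cdh2 at -1.04 and -1.15, and Cdon at -1.12 and -1.25 at 1 and 4 Hz, with the median of all genes at -0.14 and -0.21. Long transcripts as a class were lower at these frequencies, with a median of -0.09 at 1 Hz and -0.12 at 4 Hz over the longest of 3 length classes of equal size, to which all 3 genes belong. With the length trend of each library removed, Cdh15 was at -1.04 and -1.03, Cdh2 at -0.75 and -0.72, and Cdon at -0.79 and -0.79, all still past the rule. Without replicates 4 and 6 of 1 Hz, the values at 1 Hz were -0.99, -0.88, and -0.74 for Cdh15, Cdh2, and Cdon, and those at 10 against 1 Hz were 0.77, 0.60, and 0.65. In the fit corrected for length, Cdh2 at 10 Hz against 1 and 4 Hz was at 0.48 and 0.46, under the fold threshold.

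Boc is the close relative of Cdon and shares its cadherin and Hedgehog partners. The gene (ENSMUSG00000022687, 19 exons) lies at chr16:44305290-44379432 on the minus strand of GRCm39. It had 3.64, 5.53, and 6.12 CPM (lowest, median, and highest) in the controls, with medians of 5.15 at 1 Hz, 5.85 at 4 Hz, and 4.41 at 10 Hz. All 3 stimulated groups overlapped with the controls. At these frequencies its changes of -0.06 ± 0.14, 0.13 ± 0.14, and -0.19 ± 0.14 did not pass (adjusted p = 0.75, 0.43, and 0.81). The ratio of Cdon to Boc in TPM had a median of 18.1 in the controls and of 9.34, 7.91, and 19.6 at 1, 4, and 10 Hz. That ratio was chosen after the values had been seen and was not tested.

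The ratio of Cdh15 to Cdh2 within a library was compared by an exact two-sided permutation test. In TPM its median was 1.28 in the controls and 0.96, 1.00, and 1.29 at 1, 4, and 10 Hz, and each frequency overlapped with the controls. The difference in mean log2 ratio was -0.26 at 1 Hz (exact permutation p = 0.16), -0.27 at 4 Hz (exact permutation p = 0.056), and 0.07 at 10 Hz (exact permutation p = 0.39). Adjusted over the 9 ratio tests, none passed (0.21, 0.13, and 0.39), and the value at 4 Hz was 0.049 without 4 Hz replicate 4. That library had the highest ratio at 4 Hz, so the choice of library sets that fall. With 6 against 6 libraries the smallest p is 0.0022.

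The fusogens did not pass at any frequency. Mymk (ENSMUSG00000009214, 5 exons) lies at chr2:26951627-26962228 on the minus strand of GRCm39. Its CPM was 392, 455, and 499 (lowest, median, and highest) in the controls, with medians of 408, 452, and 438 at 1, 4, and 10 Hz, and the groups overlapped. It was at -0.16 ± 0.08, 0.03 ± 0.08, and 0.0018 ± 0.0845 on the log2 scale, with adjusted p of 0.14, 0.78, and 0.999.

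The value of Mymk depended on the unit. It belongs to the shortest of the 3 length classes, whose median was 0.19 at 1 Hz and 0.27 at 4 Hz. On log2(TPM + 1), limma gave -0.37 ± 0.09 at 1 Hz and -0.30 ± 0.09 at 4 Hz, with adjusted p of 0.0044 and 0.011, beside medians of -0.14 and -0.21 over all genes. With the length trend removed, edgeR gave -0.26 ± 0.07 at 1 Hz and -0.12 ± 0.07 at 4 Hz, with adjusted p of 0.0024 and 0.13. Without replicates 4 and 6 of 1 Hz the value there was -0.28. Leaving out 1 library at a time, the adjusted p of edgeR at 1 Hz ran from 0.0325 to 0.28. It was lowest without 1 Hz replicate 4, the highest library there for Mymk. None of these reached the fold threshold.

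Mymx (ENSMUSG00000079471, 2 exons) lies at chr17:45911239-45913028 on the minus strand of GRCm39. It had 47.9, 51.7, and 63.1 CPM (lowest, median, and highest) in the controls, with medians of 58.3, 61.7, and 58.2 CPM at 1, 4, and 10 Hz. The groups overlapped at each frequency, although the highest library of all, at 86.3 CPM, was at 10 Hz. None of the changes of 0.10 ± 0.12, 0.21 ± 0.12, and 0.26 ± 0.12 passed (adjusted p = 0.56, 0.15, and 0.62). On log2(TPM + 1) the values at 1 and 4 Hz turned to -0.12 and -0.13. Without replicates 4 and 6 of 1 Hz, the value there was 0.023.

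The ratio of Mymx to Mymk relates the pore-opening to the leaflet-mixing fusogen. In TPM it ran from 0.23 to 0.317 in the controls with a median of 0.272. The medians were 0.315, 0.323, and 0.33 at 1, 4, and 10 Hz. At 10 Hz the ratios ran from 0.309 to 0.377 and overlapped only with the top of the control range. The difference in mean log2 ratio was 0.26 at 1 Hz (exact permutation p = 0.052), 0.17 at 4 Hz (exact permutation p = 0.16), and 0.29 at 10 Hz (exact permutation p = 0.011). After adjustment over the 9 ratio tests the values were 0.13, 0.21, and 0.097, and none passed. At 10 Hz, leaving out control replicate 1 or control replicate 2 brought the adjusted p to 0.039 in either case. These replicates had the highest ratios of the controls, so the choice of library sets that fall.

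The genes most like each fusogen were found by the root mean square difference of mean-centered log2 CPM over the 24 libraries. For Mymk these were Chrnb1 (0.083), a subunit of the muscle acetylcholine receptor, Mdh2 (0.087), a mitochondrial malate dehydrogenase, and Neurl1a (0.090). For Mymx they were Mtch1 (0.133), Acot7 (0.136), and Rab34 (0.136). Mymk itself spread by 0.155 and Mymx by 0.230 around their means on this measure, so close genes are also genes that vary little. Among the 10, the closest pair was Mymk and Trim72 (0.138) and the farthest Cdh15 and Cav3 (0.731). Cdh15 and Cdon differed by 0.233, Cdh2 and Cdon by 0.246, and Cdh15 and Cdh2 by 0.281, and Cdon and Boc by 0.577.

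The ferlins did not pass at any frequency. Myof (ENSMUSG00000048612, 54 exons), the ferlin of fusing myoblasts, lies at chr19:37887484-38032048 on the minus strand of GRCm39. It had 52.3, 59.3, and 71.9 CPM (lowest, median, and highest) in the controls, with medians of 68.7, 63.5, and 71.1 at 1, 4, and 10 Hz. The 1 Hz libraries were the most spread, from 40.5 CPM in replicate 6 and 45.3 in replicate 4 to 93.7 in replicate 1. Relative to the controls these groups were at 0.11 ± 0.15, 0.05 ± 0.15, and 0.28 ± 0.15 on the log2 scale, with adjusted p of 0.57, 0.79, and 0.66. Without these replicates 4 and 6, the lowest for Myof, the value at 1 Hz was 0.33, which the choice of libraries sets. Between 10 and 4 Hz, Myof was higher at 10 Hz by 0.22 ± 0.15 in edgeR (adjusted p = 0.22). With limma on log2(TPM + 1) it was higher by 0.50 ± 0.17 (adjusted p = 0.022), just past the fold threshold. On that unit the median of all genes against the control was also lower at 4 than at 10 Hz, a shift that this difference includes.

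Dysf (ENSMUSG00000033788, 55 exons), the ferlin of mature fibers whose loss causes muscular dystrophy, lies at chr6:83985345-84188042 on the plus strand of GRCm39. It had 69.7, 78.2, and 85.7 CPM in the controls, with medians of 72.2, 74.98, and 69.7 at 1, 4, and 10 Hz, and all groups overlapped with the controls. The changes were -0.17 ± 0.09, -0.01 ± 0.09, and -0.15 ± 0.09 on the log2 scale, and none passed (adjusted p = 0.14, 0.95, and 0.70). Without replicates 4 and 6 of 1 Hz, the value there was -0.17. Both ferlins have many annotated transcripts, and the effective length that links count to TPM varied 2.04-fold between libraries for Myof and 1.64-fold for Dysf, beside 1.19-fold for the median gene. Their TPM therefore also carries how counts were shared among transcripts.

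The ratio of Dysf to Myof in TPM had a median of 1.36 in the controls and of 1.11, 1.09, and 1.07 at 1, 4, and 10 Hz, and each frequency overlapped with the controls. The difference in mean log2 ratio was -0.45 at 1 Hz (exact permutation p = 0.093), -0.23 at 4 Hz (exact permutation p = 0.29), and -0.47 at 10 Hz (exact permutation p = 0.048). Adjusted over the 9 tests these were 0.17, 0.33, and 0.13. With CPM + 1 in place of TPM, which does not use the transcript lengths, the difference at 10 Hz was -0.42 with an adjusted p of 0.039.

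**Figure D4:**
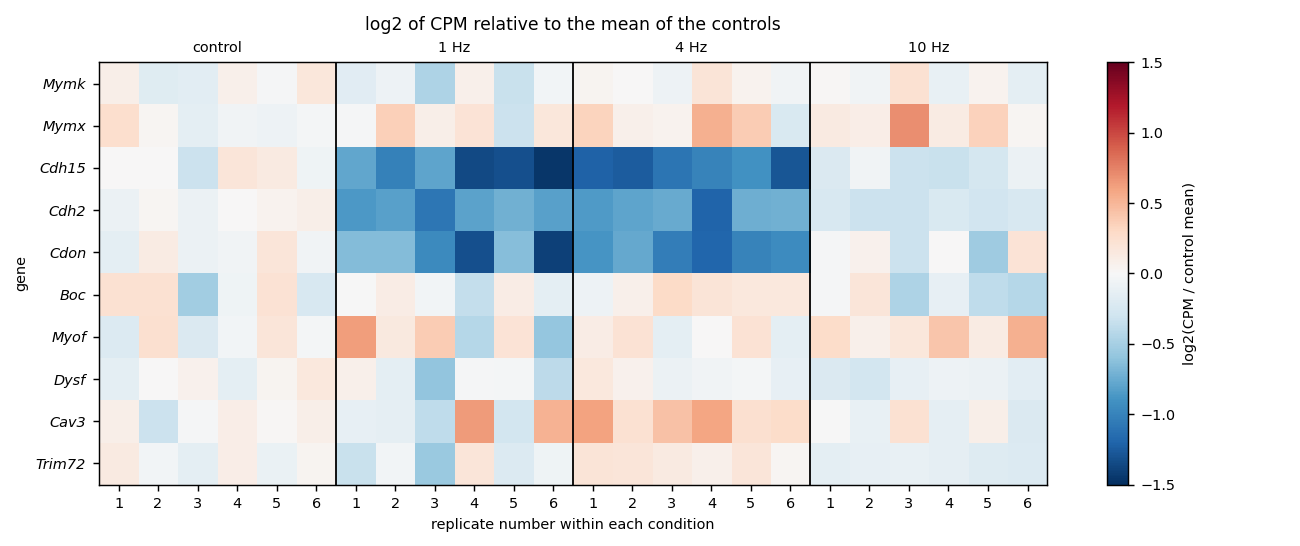
Color gives log2 of each library's CPM relative to the control mean, for the 10 genes (rows) in 24 libraries (columns, by replicate number within the control, 1, 4, and 10 Hz). Cdh15, Cdh2, and Cdon are low throughout 1 and 4 Hz, and replicates 4 and 6 of 1 Hz have high Cav3 (81.5 and 75.6 CPM) and low Myof.

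Cav3 builds the caveolae of muscle, the small membrane pits that buffer stretch and hold dysferlin in place. The gene (ENSMUSG00000062694, 2 exons) lies at chr6:112436466-112449833 on the plus strand of GRCm39. It had 42.2, 54.5, and 56.2 CPM (lowest, median, and highest) in the controls and 61.5, 67.2, and 79.6 CPM at 4 Hz. All 6 libraries at 4 Hz were above every control, as for 12.9% of all genes. Its log2(fold change) of 0.40 ± 0.14 (adjusted p = 0.018) passed on p, as did 51.4% of all genes, and not on fold. Its adjusted p was 0.071 without the filter on low counts and 0.062 when replicate 4 of 4 Hz was left out. On log2(TPM + 1) the value was 0.07 ± 0.10 (adjusted p = 0.62), and with the length trend removed it was 0.18 ± 0.09 (adjusted p = 0.11).

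At the other frequencies Cav3 overlapped with the controls. At 1 Hz its libraries fell into 2 sets, replicates 4 and 6 at 81.5 and 75.6 CPM and the other 4 between 40.4 and 48.3 CPM. Its log2(fold change) was 0.10 ± 0.14 (adjusted p = 0.58) with all 6 and -0.25 without these replicates, a sign that their removal sets. At 10 Hz the libraries ran from 45.1 to 61.7 CPM and the change was -0.02 ± 0.14 (adjusted p = 0.99).

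Trim72, the muscle ubiquitin ligase that nucleates repair patches, had 93.3, 103, and 113 CPM (lowest, median, and highest) in the controls. The gene (ENSMUSG00000042828, 7 exons) lies at chr7:127603062-127611190 on the plus strand of GRCm39. Its medians were 93.9, 115, and 93.4 CPM at 1, 4, and 10 Hz, and all groups overlapped with the controls. Its changes of -0.15 ± 0.08, 0.13 ± 0.08, and -0.15 ± 0.08 did not pass (adjusted p = 0.16, 0.18, and 0.69). Without replicates 4 and 6 of 1 Hz, the value there was -0.29. Leaving out 1 library at a time, the adjusted p of edgeR at 1 Hz ran from 0.015 to 0.32, lowest without 1 Hz replicate 4, the highest for Trim72. The value at 1 Hz was -0.37 ± 0.10 with limma on log2(TPM + 1) and all libraries (adjusted p = 0.0073).

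Between 10 and 4 Hz both genes passed on p, as did 46.3% of all genes, and not on fold. Trim72 differed by -0.29 ± 0.08 (10 Hz minus 4 Hz, adjusted p = 0.0076), and its 10 Hz libraries, from 89.1 to 95.6 CPM, were all below those at 4 Hz, from 105 to 118 CPM, as for 8.1% of all genes. Cav3 differed by -0.42 ± 0.14 (adjusted p = 0.016), with 5 of the 6 libraries at 10 Hz below all at 4 Hz, and its adjusted p was 0.051 without 10 Hz replicate 6. With limma on log2(TPM + 1) neither passed on p (0.02 for Trim72, adjusted p = 0.87, and -0.11 for Cav3, adjusted p = 0.43). On that unit the median of all genes against the control was lower at 4 than at 10 Hz, and these values include that shift.

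All of the 10 genes but Cdh15, or 9, share part of their span with an annotated gene of the other strand. The methods name a directional library kit, which keeps the strand of the RNA. Whether the counting used that strand is not given in the sources used here, and the part of such neighbors in the counts was not tested.

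Other genes of the same processes were counted in 3 lists that do not hold these 10. Of 27 tested partners of fusion (actin remodeling, adhesion, and membrane proteins), 3 were lower at 1 Hz, 4 at 4 Hz, and 0 at 10 Hz, and 0 were higher at any frequency. The median of the list was -0.08, 0.01, and 0.01 at 1, 4, and 10 Hz. Of 29 tested partners of repair (annexins, calpains, caveolar proteins, and membrane-scission proteins), 1 was higher and 2 lower at 1 Hz, 1 higher and 3 lower at 4 Hz, and 0 changed at 10 Hz. The median was -0.05, 0.05, and 0.09. Of 10 tested cadherin and Hedgehog partners, 0 were higher and 2 lower at 1 Hz, 1 higher and 2 lower at 4 Hz, and 0 changed at 10 Hz. The median was -0.23, -0.30, and 0.02. Beside these counts, 14.9% of all genes were changed in either direction and 7.74% were lower at 1 Hz. At 4 Hz, 25.1% were changed and 12.3% were lower, and at 10 Hz 0.0376% were changed.

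**Figure D5:**
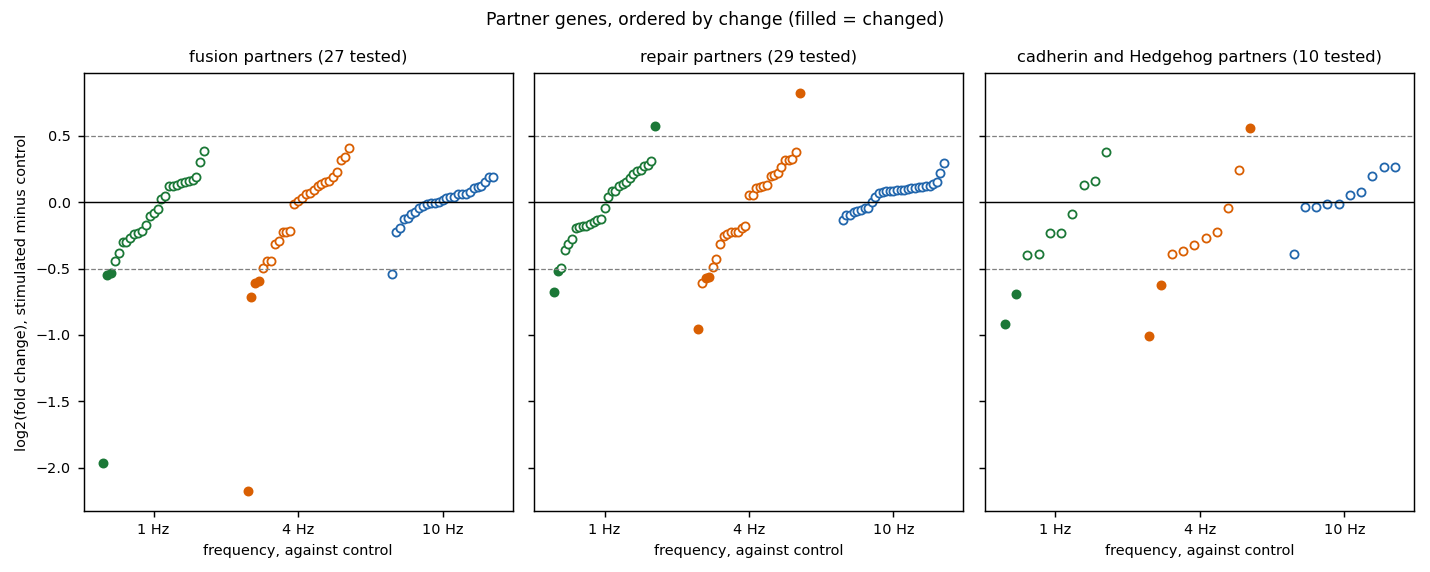
Log2(fold change) against the control (vertical axis) of every tested gene of 3 partner lists at 1, 4, and 10 Hz, ordered by value within each frequency, filled where changed. No point is filled at 10 Hz, and the lowest is Adam12 at 4 Hz, at -2.17.

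The partners named here had the smallest p among the changed genes of their list and direction at 4 Hz. Adam12, a membrane metalloprotease of fusing myoblasts, had 3.66, 6.38, and 11.2 CPM (lowest, median, and highest) in the controls and 1.22, 1.34, and 2.00 at 4 Hz. It fell by 2.17 ± 0.30 at 4 Hz and by 1.96 ± 0.29 at 1 Hz on the log2 scale, with adjusted p of 2.4e-06 and 1.1e-05. Its value at 4 Hz was -0.87 with limma on log2(TPM + 1) and -1.87 on log2(TPM + 0.1). Crk, an adaptor between adhesion receptors and Rac activation, fell by 0.61 ± 0.09 at 4 Hz (adjusted p = 1.0e-05) and was at -0.44 ± 0.09 at 1 Hz, under the fold threshold. Dock5 and Wasf2, regulators of Rac and of actin branching, made up the rest of the lower fusion partners, at -0.71 ± 0.16 and -0.59 ± 0.11 at 4 Hz and -0.55 ± 0.16 and -0.53 ± 0.11 at 1 Hz, and were named after their values were seen.

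Among the partners of the cadherins and Cdon, Jup and Gas1 were lower and Ptch1 higher at 4 Hz. Jup, or plakoglobin, which links cadherins to the cytoskeleton, had 102, 120, and 123 CPM in the controls and 64.2, 74.7, and 88.5 at 4 Hz. The groups did not overlap, and it fell by 0.63 ± 0.08 at 4 Hz and by 0.69 ± 0.08 at 1 Hz on the log2 scale, with adjusted p of 4.0e-07 and 2.4e-07. Its value at 4 Hz was -0.96 with limma on log2(TPM + 0.1). Gas1, a Hedgehog co-receptor like Cdon and Boc, fell by 1.01 ± 0.10 at 4 Hz and by 0.92 ± 0.10 at 1 Hz, with adjusted p of 3.0e-08 and 2.4e-07, and all its libraries there were below all controls. Ptch1, the Hedgehog receptor, was higher by 0.56 ± 0.20 at 4 Hz (adjusted p = 0.022), with overlapping groups. Its adjusted p was 0.11 without the filter on low counts and 0.40 with limma on log2(TPM + 1). It was 0.054, 0.066, and 0.055 when control replicate 3, 4 Hz replicate 2, or 4 Hz replicate 6 was left out.

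Among the repair partners, Ehd2 and Cavin1 act at caveolae. Ehd2, the ATPase at the neck of caveolae, had 132, 147, and 168 CPM in the controls and 62.4, 80.5, and 88.2 at 4 Hz, and fell by 0.95 ± 0.13 on the log2 scale (adjusted p = 1.4e-06). Cavin1, the coat protein needed for caveolae, was at -0.56 ± 0.06 at 4 Hz (adjusted p = 1.8e-07) and at -0.47 with the length trend removed, under the fold threshold. Cavin2, another caveolar coat protein, named after its values were seen, was at -0.57 ± 0.08 at 4 Hz and -0.52 ± 0.08 at 1 Hz. Cav1, Cavin3, Cavin4, and Ehd1, which are also on that list, were not counted as changed at either frequency. S100a10, the partner of annexin A2, was higher by 0.82 ± 0.16 at 4 Hz (adjusted p = 0.00028), and by 0.46 on log2(TPM + 1) and 0.36 with the length trend removed, both under the fold threshold. Of the 8 partners named by smallest p, 5 (Crk, Adam12, Cavin1, Jup, and Gas1) share part of their span with a gene of the other strand.

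Counts of changed markers of the cell states present stand beside 14.9% and 25.1% of all genes at 1 and 4 Hz. Of 7 tested markers of myoblasts and reserve cells, Pax7 and Myod1 were lower and Myf5 and Spry1 higher at both 1 and 4 Hz, and 0 changed at 10 Hz. Myod1, the myogenic regulator, was at -1.42 ± 0.09 and -1.75 ± 0.09 at 1 and 4 Hz, and Myf5 at 1.32 ± 0.13 and 1.17 ± 0.13. The summed TPM of the list was 801 to 895 in the controls, 585 to 752 at 1 Hz, 542 to 731 at 4 Hz, and 821 to 884 at 10 Hz, with Pax3 at 0 throughout. Of 12 myotube markers, 0 changed at 1 and 10 Hz and 2 (Tnni2 and Mylpf) were higher at 4 Hz, and their summed TPM ranged from 12484 to 19626 at 1 Hz, 15888 to 19091 at 4 Hz, and 15053 to 17546 at 10 Hz. Of 8 markers of proliferating cells, 1 was higher at 1 Hz, 1 higher and 4 lower at 4 Hz, and 0 changed at 10 Hz. Their sum was 22.4 to 36.3 TPM in the controls, 23.0 to 45.8 at 1 Hz, 18.8 to 29.5 at 4 Hz, and 30.7 to 43.3 at 10 Hz. Of 4 tested fibroblast markers, Ly6a was higher at 1 and 4 Hz, by 0.66 ± 0.10 and 0.67 ± 0.10, and the summed TPM was 929 to 1240 in the controls, 1122 to 2059 at 1 Hz, 1152 to 1589 at 4 Hz, and 1218 to 1400 at 10 Hz. The part of these markers in the values of the adhesion receptors was not tested.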

How the data were processed

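RNA of 24 libraries, 6 biological replicates per condition, was sequenced by the authors as read pairs after poly(A) selection, and ribodepletion is named for samples of low input, which are not identified. Per the labels and methods, reads were processed with nf-core/rnaseq and Salmon against GRCm39, and the submitters' processing notes also name BWA 0.7.12-r1039 and bedtools 2.25.0. The deposited estimated count per gene is not normalized, and 6.15% of the values were not whole (tolerance 0.001). The deposited TPM per gene was divided by transcript length by the authors' pipeline. Which samples, if any, came from shared cultures is not stated, so p-values measure the spread between these libraries.

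Estimated counts were rounded, filtered by filterByExpr (minimum count 10, minimum total 15), scaled by TMM, and fitted in edgeR 4.0.16 (R 4.3.3, robust quasi-likelihood) with a mean per condition for all 24 libraries. The biological coefficient of variation was 14.8%, which with 8052369 to 18159144 counts per library limits what can be told from 0. CPM has a prior count of 2 only where log2 CPM is compared between genes. Ratios used exact permutation tests with adjustment over 9. Scripts were tested on simulated data. Alternatives were RLE and upper-quartile factors, no filter or a strict filter (50 counts in 6 libraries), 2 groups in the fit, a block on replicate numbers, DESeq2 1.42.0, limma 3.58.1 on log2(TPM + 1) and log2(TPM + 0.1) where at least 6 libraries reached 1 TPM, a length offset (lowess span 0.3), no fold threshold, and leaving out each library.

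Named genes are the 10 members, up to 2 genes with the smallest p per direction in each partner list at 4 Hz, and the 3 genes most like each fusogen. Markers and members named for their counts, and the Cdon to Boc ratio, were chosen after values were seen. The members, lists, and rules were chosen with earlier results of these data known. Of the fusion partners, 31 of 32 symbols were found. Gene positions come from GENCODE M39 (GRCm39).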

Additional observations from a re-analysis of the deposited data

Results flagged for a closer look

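Among the 40 sets of 6 libraries examined (10 genes in 4 conditions, in CPM), 2 held a library farther from the others than Dixon's 95% limit for 6 values allows, where chance gives about 1 in 20. Cdh2 was at 63.2 CPM in 4 Hz replicate 4, with the nearest library at 80.3 and the highest at 88.1 CPM. Cav3 was at 42.2 CPM in control replicate 2, with the nearest at 51.9 and the highest at 56.2 CPM. Without that control, Cav3 at 4 Hz was at 0.35 with an adjusted p of 0.049 in edgeR.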

How the results depend on the processing

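Of the recomputed counts and ratios, 270 kept to within 1.5 times or to their side of the threshold, 2 moved, and 4 passed it newly. Of the recomputed values of single genes, 1012 kept their sign and their side of the threshold, 70 changed sign, and 12 no longer passed, all of them Cdh2 at 10 against 1 or 4 Hz, Cavin1, S100a10, or Ptch1. Cdh15, Cdh2, and Cdon were changed at 1 and 4 Hz under every alternative and without any 1 library. No value that changed sign had passed both thresholds, and Trim72 at 10 against 4 Hz had passed on p. Without the fold threshold, 5 of the 10 differed between 10 and 4 Hz (Cav3 and Trim72 in addition). The other count that moved was that at 4 against 1 Hz, without 1 Hz replicates 4 and 6. These were chosen after seeing the data and were the highest there for Cav3, so the choice sets that move and it is not a result. Without them Cav3 at 4 against 1 Hz was at 0.62, and Boc and Cav3 at 1 Hz were at 0.020 and -0.25. The ratio of Dysf to Myof at 10 Hz was -0.42 on CPM + 1.

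The values that changed sign were as follows. Mymk at 10 Hz was at -0.0026 with RLE factors, -0.0087 without the filter, -0.0018 with the strict filter, -0.0016 with 2 groups in the fit, -0.0026 with DESeq2, -0.015 with the length offset, and -0.016 on log2(TPM + 1) and log2(TPM + 0.1). Mymk at 4 Hz was at -0.014 without the filter. Cdh2 at 4 against 1 Hz was at -0.0071 with RLE factors, -0.0034 without the filter, and -0.0080 with DESeq2. Dysf at 4 Hz was at 0.024 with upper-quartile factors. On log2(TPM + 1), where the median of all genes was -0.14, -0.21, and -0.01 at 1, 4, and 10 Hz, Mymx and Cav3 at 1 Hz were at -0.12 and -0.16, Mymk, Mymx, Boc, Myof, and Trim72 at 4 Hz were at -0.30, -0.13, -0.11, -0.12, and -0.19, Trim72 at 10 against 4 Hz was at 0.024, and Cdh2 at 4 against 1 Hz was at -0.11. On log2(TPM + 0.1) the same values were -0.12, -0.16, -0.30, -0.13, -0.16, -0.13, -0.19, 0.024, and -0.11. With the length offset, Mymx, Boc, and Cav3 at 1 Hz were at -0.17, 0.039, and -0.064, Mymk, Mymx, and Dysf at 4 Hz were at -0.12, -0.20, and 0.15, and Cdh15 and Cdon at 4 against 1 Hz were at 0.0045 and 0.0043. The cause was not tested.

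Leaving out 1 library at a time gave ranges that held 0 or crossed the threshold. At 1 Hz these were -0.013 to 0.20 for Myof and -0.058 to 0.17 for Cav3. At 4 Hz they were -0.034 to 0.065 for Mymk, -0.0049 to 0.11 for Myof, and -0.056 to 0.024 for Dysf. At 10 Hz they were -0.048 to 0.037 for Mymk and -0.075 to 0.021 for Cav3. At 4 against 1 Hz they were -0.085 to 0.049 for Cdh15, -0.040 to 0.070 for Cdh2, and -0.14 to 0.0011 for Cdon. The log2 ratio of Mymx to Mymk at 10 Hz ranged from 0.23 to 0.33 and that of Cdh15 to Cdh2 at 4 Hz from -0.36 to -0.21.

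With the replicate number as a block, the counts of changed genes among the 10 were as without it. They were 3, 3, and 0 at 1, 4, and 10 Hz. They were 3 and 3 at 10 against 1 and 4 Hz, and 0 at 4 against 1 Hz. No ratio passed with the block (sign-flip permutation, adjusted p from 0.21 to 0.56). With so few pairs, the smallest p of that test is too large for a single ratio to pass alone after adjustment. The blocked test therefore cannot decide whether the ratios differ, and nothing is concluded from it. Samples of the same number correlated at -0.33 to 0.24 and in no comparison at over 0.1 in every pair, so the numbers were not taken to pair the samples. Depth limits Boc most, with 41 to 105 estimated counts per control library.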
